A study of Mus musculus with 12 samples.

Results

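A set of 10 immediate early genes was followed through every library of the series. They were taken by symbol from the deposited table of 56748 genes, and all 10 symbols were found: Egr1, Fos, Fosb, Jun, Junb, Ier2, Ier3, Nr4a1, Atf3 and Btg2. The set was drawn up with results of these data in view, among them the large difference of Egr1 between knockout and control rods, so the members count as selected on the measured values of that contrast. For that reason the comparison of knockout with control rods is given below as a description, without p-values. The comparisons of rods with retina use the same rod libraries, so their p-values are not independent of the choice either. Whole retina contains rods, so the same limit is set on the comparison of genotypes in retina.

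The 12 libraries are RNA sequencing of mouse retina at 2 weeks of age, 3 libraries in each of 4 groups. Controls (Het) were RiboTag;Shp2fl/+;i75-Rod-Cre littermates, and knockouts (KO) were RiboTag;Shp2fl/fl;i75-Rod-Cre. Shp2 is the tyrosine phosphatase encoded by Ptpn11. All mice of all 4 groups were homozygous for RiboTag, in which Cre adds a hemagglutinin (HA) tag to the ribosomal protein Rpl22, and all carried Cre under the rhodopsin promoter, so the controls had also lost 1 copy of Shp2 in rods and no group kept both copies there. The titles of the control libraries read wt, whereas the genotype field lists them as heterozygous. From each genotype, RNA was sequenced from the whole retina (retina) and from ribosomes pulled down with an HA antibody, called translating ribosome affinity purification or TRAP (rods). Every tissue was perfused with cycloheximide, which stops ribosomes on their mRNA, and then snap-frozen. The sources used here do not say whether the 3 libraries of a group came from separate mice or from pools, so the p-values below measure only the spread between these libraries.

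Immediate early genes are the genes that a cell transcribes first after a stimulus, from factors already present and without new protein synthesis. In the usual account, growth factor receptors, calcium or stress activate the Ras, Raf, MEK and ERK kinases, these phosphorylate Elk1, Creb1 and related factors, and the factors act at serum response elements and cyclic AMP response elements near the start sites. Shp2 is best known as a positive link from receptors to Ras and ERK. Egr1 and Nr4a1 encode transcription factors, Fos, Fosb, Jun, Junb and Atf3 encode bZIP proteins of the AP-1 and ATF families, Ier2 and Ier3 encode nuclear and survival-related proteins, and Btg2 encodes an antiproliferative adaptor of mRNA deadenylation. Inhibitors of translation such as cycloheximide are themselves known to raise mRNAs of this class. That treatment was shared by all 4 groups.

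The stretch before the start site carries the elements through which these genes are usually switched on, so 4 upstream windows are shown, each the 250 bases before the RefSeq start on the gene's own strand in the build GRCm38.p6. They were chosen to show the range of the set, from several half-sites to none. Capitals mark the cyclic AMP response element half-site TGACG or its reverse complement CGTCA, and in Btg2 the full element TGACGTCA. Fos lies at chr12:85473640-85473889 (+), Nr4a1 at chr15:101266596-101266845 (+), Btg2 at chr1:134079156-134079405 (-) and Ier3 at chr17:35821463-35821712 (+).
Fos: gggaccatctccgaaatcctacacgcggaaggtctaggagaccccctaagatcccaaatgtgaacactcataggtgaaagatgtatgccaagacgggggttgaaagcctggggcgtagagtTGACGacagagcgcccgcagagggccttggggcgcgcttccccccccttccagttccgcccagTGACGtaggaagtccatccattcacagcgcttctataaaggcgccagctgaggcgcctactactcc
Nr4a1: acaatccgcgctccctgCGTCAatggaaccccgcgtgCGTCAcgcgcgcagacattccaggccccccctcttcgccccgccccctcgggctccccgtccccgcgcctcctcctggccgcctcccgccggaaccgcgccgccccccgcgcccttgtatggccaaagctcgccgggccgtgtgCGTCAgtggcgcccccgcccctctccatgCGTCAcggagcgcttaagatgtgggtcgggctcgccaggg
Btg2: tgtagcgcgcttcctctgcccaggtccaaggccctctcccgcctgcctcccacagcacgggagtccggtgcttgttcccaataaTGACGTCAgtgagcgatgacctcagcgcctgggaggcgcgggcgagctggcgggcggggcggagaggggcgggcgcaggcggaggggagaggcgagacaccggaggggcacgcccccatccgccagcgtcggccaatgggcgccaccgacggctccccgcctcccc
Ier3: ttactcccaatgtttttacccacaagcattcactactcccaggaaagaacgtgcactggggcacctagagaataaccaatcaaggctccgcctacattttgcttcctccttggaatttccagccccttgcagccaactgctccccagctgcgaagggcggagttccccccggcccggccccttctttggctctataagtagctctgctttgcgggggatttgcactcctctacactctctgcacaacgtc
The windows differ in how many half-sites they hold. Fos has 2, whose first bases lie 129 and 66 bases before the start, followed by the letters TATAAA at 33 bases. Nr4a1 has 4 in the reverse orientation, and Btg2 has 1 full element 166 bases before the start. Ier3 has none. Windows were given for 8 of the 10 genes, not for Egr1 and Ier2. Searched on both strands, TGACG was present in 6 of these 8 (Fos, Fosb, Junb, Nr4a1, Atf3 and Btg2), against 17.8% of the 32851 RefSeq windows of the same length. The full element TGACGTCA, which contains the half-site on both strands, was in 1 of 8 against 1.55%. The box CCAAT was in 4 of 8 against 33.8%, TATAAA in 1 of 8 against 12.4%, the AP-1 motif TGANTCA in 0 of 8 against 6.75%, and the CArG box in 0 of 8 against 1.47%. These matches describe letters in 1 window per gene. Elements further from the start, and those of Egr1 and Ier2, were not searched, so a count of 0 does not show that a gene lacks the element. The deposited table was made on another build per the submitters' processing notes (GRCm39), and no coordinate of that build is given here.

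The deposited values are whole numbers whose totals are nearly equal within a fraction (14525527 to 14527992 in retina, 16263948 to 16265259 in rods). This scaling is read from the values and is not described in the sources used here. The spacing of low values put the reads behind them at an estimated 9980000 to 19230000 for a retina library and 11890000 to 25280000 for a rod library. A value left by 3 reads would lie between 2.27 and 4.37 in retina and between 1.93 and 4.10 in rods, which covers counting error only. The targeted gene Ptpn11 had values of 2511, 2439 and 2431 in Het rods against 1735, 2139 and 1971 in KO rods, a log2 fold change of -0.23 (SE 0.09, adjusted p = 0.0775 from limma). Rod markers were enriched in the rod fraction: by the call rule below, 14 of 14 were higher in Het rods than in Het retina, beside 22.7% of all genes. Lower were 12 of 12 Müller glia markers and 10 of 10 ganglion cell markers, beside 36.4% of all genes. Of these, 2 Müller glia and 2 ganglion cell markers passed the filter on low values only through retina and could only come out lower. Cone markers were lower for 9 of 10 and higher for 1. Bipolar markers were lower for 10 of 12, 1 of them passing only through retina, and higher for 1. Cone markers summed to 0.109% to 0.129% of Het retina values and 0.0432% to 0.0599% of Het rod values. For bipolar markers the sums were 0.144% to 0.152% and 0.0553% to 0.0658%. The libraries also differed in how values moved with the GC content of the transcript. This GC tilt was taken as the median of the 10% of genes richest in GC minus that of the 10% poorest, each gene centred on its mean in the fraction. The tilt ran from -0.81 to -0.23 in Het rods and from 0.28 to 0.76 in KO rods on the log2 scale, so it did not overlap between the rod groups, while in retina it ran from -0.84 to 0.86 in Het and from -0.63 to 0.90 in KO. The GC content of the set ran from 49.7% in Btg2 to 60.9% in Ier2 and 62.6% in Junb, which are percentiles 51.1, 97.7 and 99.1 of the genes compared in rods, and values with the GC trend of each library subtracted are therefore given beside those of the comparisons below.

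All fold changes below are on the scale log2(value + 2) after TMM scaling, which evens out libraries by the bulk of their genes and understates the change of low genes. A gene was called where its adjusted p was under 0.05 and its log2 fold change was larger than 0.5 in size. The p-values come from limma, with Benjamini-Hochberg adjustment over every gene of the comparison that was tested.

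KO rods had the highest mean of the 4 groups for 10 of 10 genes, which was so for 26.5% of the 17192 genes compared, and the choice of the set fixes part of this. With library size alone as the scaling the count was 8 of 10, since Nr4a1 and Btg2 were then highest in KO retina. For Fos, Jun, Ier2 and Ier3 all 3 KO rod libraries lay above the 9 other libraries, a pattern found in 10% of all genes. For the remaining 6 the KO rod libraries overlapped the next group: KO retina for Egr1, Junb and Nr4a1, Het retina for Fosb, and Het rods for Atf3 and Btg2. Among the lower groups, neighbours in the order overlapped except at a few steps. KO retina lay clear of Het retina for Egr1 and Ier3, and Het rods lay clear of KO retina for Atf3. Per kb of transcript, the levels in KO rods ran from 1690 for Ier3 and 741 for Btg2 through 200 for Atf3, 187 for Fos, 179 for Egr1, 123 for Jun and 115 for Nr4a1 to 88.2 for Ier2, 20.1 for Junb and 14.9 for Fosb. Ier3 and Btg2 were thus the most abundant members per length in rods, and Junb and Fosb the least. In bulk RNA a change in the number of cells carrying a transcript and a change in the amount per cell cannot be told apart.

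**Figure D1:**
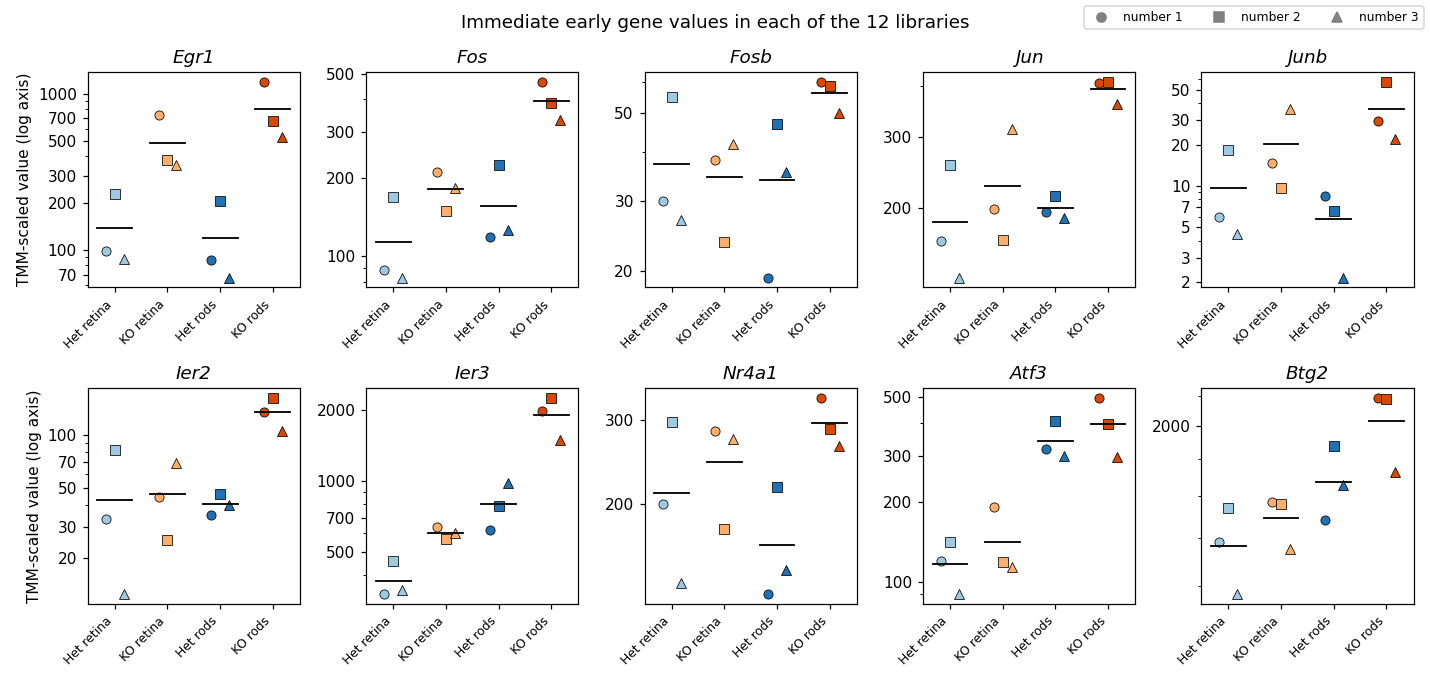
TMM-scaled value (log axis, arbitrary units of the deposited table) of each of the 10 genes in the 12 libraries, with 1 point per library, its shape giving the library number and a bar at the group mean. For Fos, Jun, Ier2 and Ier3 the 3 KO rod points sit above the 9 other points.

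The first comparison sets KO rods against Het rods, and asks which transcripts on rod ribosomes differ when the second copy of Shp2 is also lost. Egr1 (ENSMUSG00000038418), a zinc finger factor induced by ERK signalling, had deposited values of 82, 189 and 62 in Het rods against 1019, 564 and 460 in KO rods. The lowest KO library was above the highest Het library, and within each genotype 1 library stood well above the other two. The mean after scaling was 107 ± 66.8 (SD, n = 3) in Het and 708 ± 313 (SD, n = 3) in KO, a log2 fold change of 2.78 (SE 0.56), the 8th highest of the 13055 genes fitted. With the GC trend subtracted the log2 fold change was 2.21 (SE 0.54). Nr4a1 (ENSMUSG00000023034), an orphan nuclear receptor that responds to the same kinases and to calcium, had values of 121, 198 and 134 in Het rods against 283, 240 and 227 in KO rods. These groups did not overlap either. Nr4a1 had a log2 fold change of 0.85 (SE 0.19), which was 0.32 (SE 0.15), with overlapping groups, once the GC trend was subtracted.

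Among the genes of the AP-1 family, Fos (ENSMUSG00000021250), which dimerises with Jun proteins, had values of 112, 204 and 117 in Het rods against 395, 322 and 287 in KO rods. The groups lay apart, and Het library 2 was the nearest to KO. Fos had a log2 fold change of 1.35 (SE 0.23), and 1.22 (SE 0.23) with the GC trend subtracted. Jun (ENSMUSG00000052684), the partner that can also bind DNA as a dimer with itself, had values of 184, 196 and 175 against 346, 343 and 311. Spread within each group was small and the groups lay far apart. For Jun the log2 fold change was 0.95 (SE 0.12), and 0.53 (SE 0.11) with the GC trend subtracted. Junb (ENSMUSG00000052837) had values of 8, 6 and 2 in Het rods against 25, 48 and 19 in KO rods. The groups did not overlap, but the third Het value is below what 3 reads would give in that library (3.54). Its log2 fold change was 2.24 (SE 0.45), and 1.31 (SE 0.42) with the GC trend subtracted. Exons of Junb overlap those of Prdx2 on the opposite strand, which reached a value of 2689, and Jun overlaps the antisense gene Junos, which reached 22. The strand used in counting is not given in the sources used here, so reads of these pairs cannot be told apart. Fosb (ENSMUSG00000003545) had values of 18, 43 and 33 in Het rods against 51, 49 and 43 in KO rods. After scaling, the lowest KO library lay just above the highest Het library. The log2 fold change of Fosb was 0.75 (SE 0.30), and with the GC trend subtracted it was 0.30 (SE 0.26) and the groups overlapped. Atf3 (ENSMUSG00000026628), a stress-induced member of the ATF family, had values of 299, 372 and 278 against 422, 330 and 256. The genotypes overlapped over most of their range, the lowest value of all being a KO library. Its log2 fold change was 0.17 (SE 0.19), and 0.02 (SE 0.18) with the GC trend subtracted.

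Of the 3 remaining genes, Ier2 and Ier3 were apart between genotypes and Btg2 was not. Ier3 (ENSMUSG00000003541), which modulates survival and ERK signalling, had values of 583, 716 and 913 in Het rods against 1677, 1884 and 1291 in KO rods. The groups lay apart at a high level. Ier3 had a log2 fold change of 1.24 (SE 0.21), and 0.92 (SE 0.19) with the GC trend subtracted. Ier2 (ENSMUSG00000053560), a short nuclear protein, had values of 33, 42 and 37 against 115, 136 and 90. Every KO library was above every Het library by a wide margin. For Ier2 the log2 fold change was 1.65 (SE 0.21), and 0.82 (SE 0.17) with the GC trend subtracted. Btg2 (ENSMUSG00000020423) had values of 1390, 1721 and 1534 in Het rods against 1857, 1824 and 1487 in KO rods. The groups overlapped through KO library 3. The log2 fold change of Btg2 was 0.26 (SE 0.12), and 0.25 (SE 0.12) with the GC trend subtracted.

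In this comparison 7 of the 10 genes met the call rule as higher, beside 12.1% of all 13055 genes, and 8 of 10 had groups that did not overlap with KO higher, beside 25.3%. The 3 not called were Fosb, Atf3 and Btg2. Junb, among the 7, passed the filter on low values only through KO rods, where it was high. Since results of this contrast shaped the set, nothing is read from these shares. The median log2 fold change was 1.10 over the 10 genes and 0.01 over all genes. Across all genes with known GC content the change rose with GC content (Spearman 0.70 over 12907 genes, which are not independent replicates). With the GC trend subtracted 4 of the 10 were called (Fos, Jun, Ier2 and Ier3), beside 1.34% of all genes, and the medians were 0.68 and 0.00. In a single fit of all 12 libraries 0 of the 10 were called, beside 0% of all genes. Signals of other cells were also read in these groups. Microglia and macrophage markers summed to 0.00221% to 0.00371% of Het rod values and 0.00136% to 0.00139% of KO rod values, with 3 of 14 markers high enough to test. Lcp1 and Nckap1l were called lower in KO, but both passed the filter only through Het rods, so no direction is read from them. Müller glia markers summed to 0.0138% to 0.0230% in Het and 0.0145% to 0.0199% in KO rods, with none at 0. Of the 10 tested, 2 were called higher, beside 12.1% of all genes. They were Apoe at 1.06 (SE 0.25, adjusted p = 0.0108 from limma) and Clu at 0.58 (SE 0.16, adjusted p = 0.0231 from limma). With the GC trend subtracted they were at 0.33 (SE 0.22) and 0.15 (SE 0.17). Amacrine cell markers summed to 0.00366% to 0.00386% in Het and 0.00417% to 0.00555% in KO rods. Of these, 1 of the 6 tested (Slc6a9) was called higher, beside the same 12.1%, and Th was at 0. Lens markers ran from 3.69e-05% to 0.0299% in Het and from 0.0122% to 0.101% in KO rods. Of these, 13 of 13 tested had positive changes, beside 51.4% of all genes, and 0 were called. The lens markers are not independent replicates. The part of these other cells in the values of the immediate early genes was not tested.

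**Figure D2:**
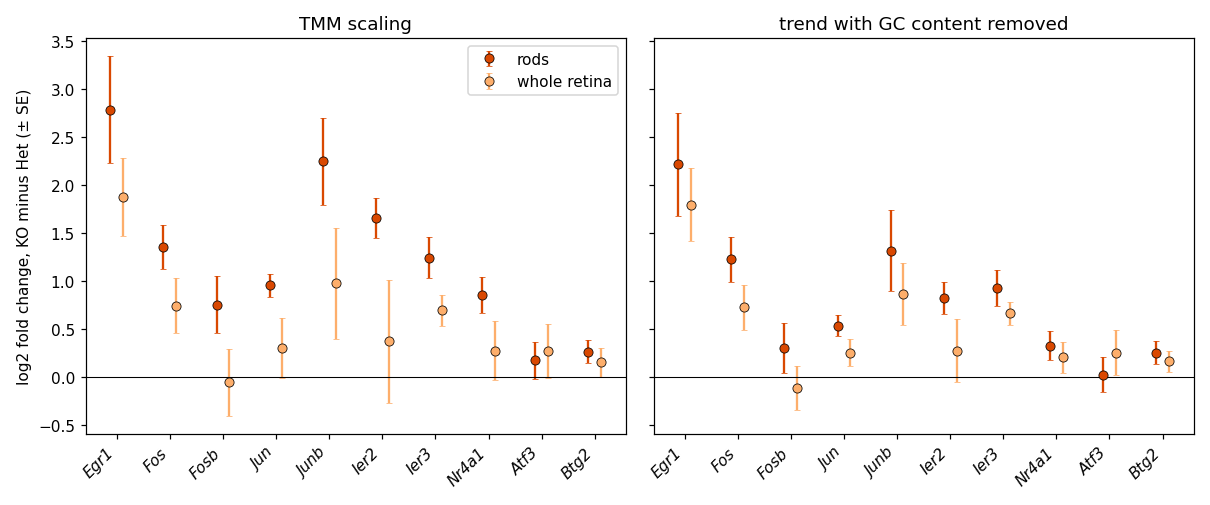
Log2 fold change of KO against Het (vertical axis, bars ± SE) for each gene in rods and in whole retina, under TMM scaling on the left and with the GC trend of each library subtracted on the right. Egr1 is the highest point of both fractions, at 2.78 in rods and 1.87 in retina, and moves to 2.21 and 1.79 on the right.

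The same genotypes were compared in whole retina, where rods share the RNA with all other cells. Egr1 had values of 115, 252 and 98 in Het retina against 844, 432 and 377 in KO retina. Every KO library exceeded every Het library, and the library numbers that were highest in rods were highest here too. The mean after scaling was 154 ± 84.0 (SD, n = 3) in Het and 550 ± 239 (SD, n = 3) in KO, with a log2 fold change of 1.87 (SE 0.41, adjusted p = 1 from limma, unadjusted p = 0.00224). Ier3 had values of 388, 501 and 387 against 738, 652 and 645, again without overlap. Its log2 fold change was 0.69 (SE 0.16, adjusted p = 1 from limma, unadjusted p = 0.00287). Neither gene passed the adjusted threshold. For Fos the values were 104, 184 and 93 in Het against 243, 170 and 197 in KO retina, and the groups met at KO library 2. The log2 fold change of Fos was 0.74 (SE 0.29, adjusted p = 1 from limma, unadjusted p = 0.0381). Junb had values of 7, 20 and 5 against 17, 11 and 39, with wide spread in both groups and a log2 fold change of 0.97 (SE 0.58).

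The other 6 genes overlapped between genotypes in retina. Jun had values of 194, 278 and 151 in Het against 230, 191 and 338 in KO, Ier2 of 39, 90 and 14 against 51, 29 and 75, and Nr4a1 of 233, 323 and 152 against 328, 202 and 294. In all 3 the libraries of 1 genotype differed among themselves by more than the means of the genotypes. Atf3 had values of 140, 155 and 101 against 223, 136 and 123, Btg2 of 1605, 1678 and 1314 against 1817, 1790 and 1448, and Fosb of 35, 60 and 30 against 44, 27 and 45. Log2 fold changes of these 6 ran from -0.06 (SE 0.35) for Fosb to 0.37 (SE 0.64) for Ier2.

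By the call rule 0 of the 10 genes differed in retina, beside 0% of the 16863 genes tested. At an unadjusted p below 0.05 from limma there were 3 of the 10 and 140 of all genes (0.83%). Their adjusted p-values stayed between 0.96 and 1 in every alternative run. The groups did not overlap, with KO higher, for 2 of 10 (Egr1 and Ier3) and for 1.75% of all genes. The change was positive for 9 of 10 and for 52.6% of all genes, with medians of 0.34 and 0.01. Whole retina contains the rods, and the set was chosen with results of these data in view. All shares of this comparison are therefore a description and are not taken as independent of that choice. Subtracting the GC trend left Egr1 at 1.79 (SE 0.38), Fos at 0.72 (SE 0.23) and Ier3 at 0.66 (SE 0.12), and the groups then did not overlap for Egr1, Fos, Jun, Junb and Ier3, with 3.14% of all genes doing so. Lens markers varied far more than these genes in the retina libraries, from 0.00112% to 1.81% of the values in Het and from 0.460% to 6.29% in KO. Of these, 14 of 14 tested had positive changes (median 2.85), beside the same 52.6% of all genes, and 0 were called. The lens markers are not independent replicates, and their part in the retina values was not tested.

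The difference between the KO effect in rods and in retina was estimated in 1 fit of the 12 libraries. It was largest for Junb at 1.36 (SE 0.80) and Ier2 at 1.32 (SE 0.74), followed by Egr1 at 0.95 (SE 0.68), Fosb at 0.85 (SE 0.50), Jun at 0.68 (SE 0.35), Fos at 0.65 (SE 0.42), Nr4a1 at 0.62 (SE 0.40) and Ier3 at 0.59 (SE 0.27). Btg2 was at 0.14 (SE 0.20) and Atf3 at -0.06 (SE 0.36). Across all genes this difference rose with GC content (Spearman 0.52 over 16906 genes, which are not independent replicates), and with the GC trend subtracted most estimates were smaller. Those of Ier2 and Junb were then 0.71 (SE 0.40) and 0.70 (SE 0.56), of Fos 0.53 (SE 0.35), of Egr1 0.50 (SE 0.69) and of Fosb 0.48 (SE 0.36). Jun was at 0.34 (SE 0.17), Ier3 at 0.32 (SE 0.22), Nr4a1 at 0.19 (SE 0.25), Btg2 at 0.13 (SE 0.18) and Atf3 at -0.19 (SE 0.33). Estimates were positive for 9 of 10 genes and 56.1% of all 17192 genes, and 0 of 10 were called, beside 0% of all genes (3.01% at an unadjusted p below 0.05 from limma). Because the rod contrast enters this difference, the values are a description.

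The highest library of each group was also read by its number. The genes of the set were correlated over the libraries, so the counts describe a few libraries and the genes are not independent replicates. In Het retina, library 2 held the highest TMM-scaled value of the 3 for 10 of 10 genes, beside 45.2% of 12921 genes, and in Het rods it did so for 8 of 10, beside 38.8%. In KO mice the highest library was number 1 for 6 of 10 genes in rods (27.7% of all genes) and 6 of 10 in retina (19.8%), and with the GC trend subtracted for 7 of 10 (32.4%) and 6 of 10 (28.5%). The highest library bore the same number in both fractions for 8 of 10 genes in Het (50.8% of all genes) and for 5 of 10 in KO (26.9%). Library 2 of Het retina also had the highest GC tilt of its group, at 0.86, and with the GC trend subtracted it was still highest for 8 of 10 genes (32.9% of all genes). In Het rods the count with the GC trend subtracted was 6 of 10 (30.8%).

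The rods to retina ratio was also taken between libraries of the same number. Deviations from the group means correlated at 0.47, 0.41 and 0.25 between same-numbered Het libraries, but at 0.33, -0.01 and 0.18 in KO, where the number alone is shared and another joining would give other ratios. For Egr1 the log2 ratio was -0.17, -0.16 and -0.38 in Het against 0.72, 0.83 and 0.60 in KO. The Het values were below 0 and the KO values above it under TMM scaling, but not with the GC trend subtracted. The ratios were then 0.77, 1.10 and 0.12 in Het against 1.15, 0.80 and 1.55 in KO, all above 0 and overlapping. In the fits of rods against retina, that subtraction also moved the median of all genes, from -0.08 to 0.37 in Het and from 0.01 to 0.40 in KO. Fos gave 0.41, 0.40 and 0.59 in Het against 1.14, 1.36 and 0.86 in KO, without overlap, and 0.97, 1.03 and 1.05 against 1.55, 1.70 and 1.39 with the GC trend subtracted. Ier3 gave 0.90, 0.77 and 1.51 against 1.63, 1.98 and 1.32, where KO library 3 was below Het library 3. For Jun the ratios were 0.23, -0.25 and 0.48 in Het against 1.03, 1.29 and 0.20 in KO, which overlapped.

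**Figure D3:**
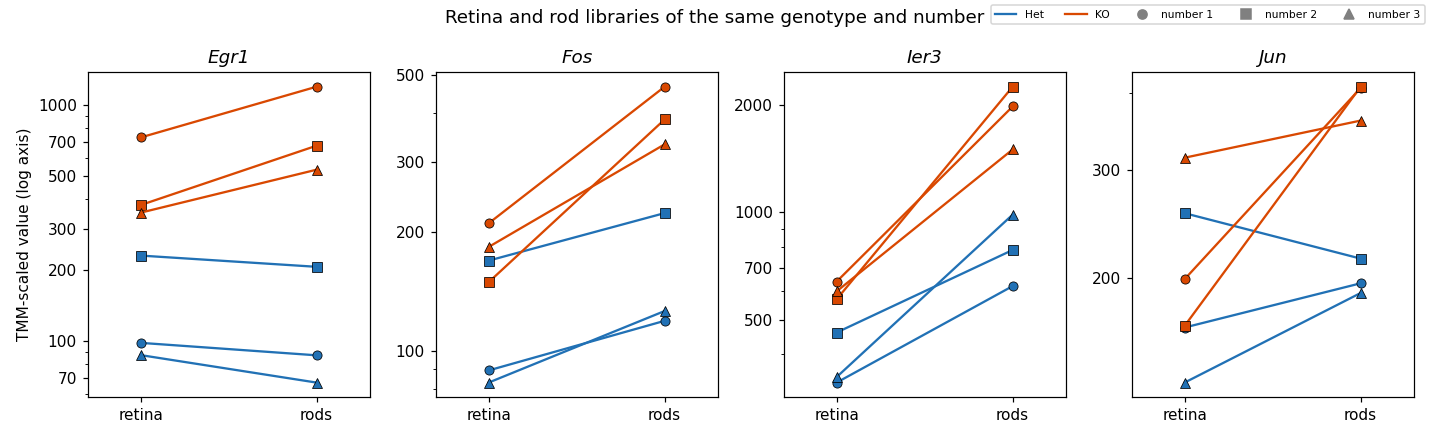
TMM-scaled value (log axis) of Egr1, Fos, Ier3 and Jun in retina and rods, with lines joining the retina and rod libraries of the same genotype and number. The Egr1 lines fall from retina to rods in the 3 Het libraries (log2 ratios -0.17, -0.16 and -0.38) and rise in the 3 KO libraries (0.72, 0.83 and 0.60). All 6 ratios are above 0 once the GC trend is subtracted, a step that moved the fitted median of all genes to 0.37 in Het and 0.40 in KO.

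Rods were next compared with whole retina within each genotype, a contrast that asks which of these transcripts are relatively abundant on rod ribosomes. In Het mice 9 of the 10 genes passed the filter on low values, Junb being left out, and 2 were called higher, beside 22.7% of all 16110 genes, with 0 called lower beside 36.4%. Atf3 had 140, 155 and 101 in Het retina and 299, 372 and 278 in Het rods, so that the lowest rod value was well above the highest retina value. Its log2 fold change was 1.54 (SE 0.22, adjusted p = 0.000334 from limma). Ier3, at 388, 501 and 387 in retina and 583, 716 and 913 in rods, was also clear of overlap, with a log2 fold change of 1.06 (SE 0.20, adjusted p = 0.00186 from limma). Both remained called in every alternative run. The other 7 ran from -0.33 (SE 0.31) for Nr4a1 to 0.47 (SE 0.34) for Fos, which was called without Het retina library 2 (0.82, SE 0.27, adjusted p = 0.0182 from limma). With the GC trend subtracted 6 of 9 were called higher (Fos, Jun, Ier2, Ier3, Atf3 and Btg2), but then so were 43.4% of all genes, and the median of all genes moved from -0.08 to 0.37.

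In KO mice all 10 genes passed the filter, and 6 were called higher in rods than in retina, beside 26.9% of all 16121 genes, with 0 lower beside 36.1%. The KO rod libraries took part in the choice of the set, which favours high values there, so the adjusted p-values of this contrast are given as a description. Ier3 had 738, 652 and 645 in retina and 1677, 1884 and 1291 in rods, with a log2 fold change of 1.64 (SE 0.16, adjusted p = 3.13e-05 from limma). Ier2 rose from 51, 29 and 75 to 115, 136 and 90 (log2 fold change 1.57, SE 0.35, adjusted p = 0.00384 from limma). Neither gene had overlapping groups. Atf3 was again higher in rods at 1.47 (SE 0.26, adjusted p = 0.00105 from limma), much as in Het mice, and Fos, at 1.11 (SE 0.19, adjusted p = 0.000834 from limma), went from 243, 170 and 197 to 395, 322 and 287. Jun at 0.83 (SE 0.22, adjusted p = 0.0098 from limma) and Fosb at 0.70 (SE 0.28, adjusted p = 0.0495 from limma) were called too, the second only just. Fosb lost its call in 11 of the 17 alternatives, and Jun lost it with library size alone as the scaling (0.27) and without KO retina library 1 (0.74, SE 0.28, adjusted p = 0.0616 from limma).

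Egr1 was not called in this contrast, at 0.71 (SE 0.35, adjusted p = 0.101 from limma), and was called without KO retina library 1, the highest of its group (1.02, SE 0.33, adjusted p = 0.0371 from limma). Btg2 had an adjusted p of 0.0202 from limma but a log2 fold change of 0.43, below the size limit, and passed it without KO rods library 3 (0.55). Junb, at 0.86 (SE 0.50), was called without KO retina library 3 (1.31, SE 0.45, adjusted p = 0.0305 from limma), and Nr4a1, at 0.29 (SE 0.21), was not called with any library left out. With the GC trend subtracted 9 of 10 were called, all but Egr1, beside 44.7% of all genes. The Het and KO contrasts share no library, but their difference is the same quantity as the difference of KO effects given above.

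**Figure D4:**
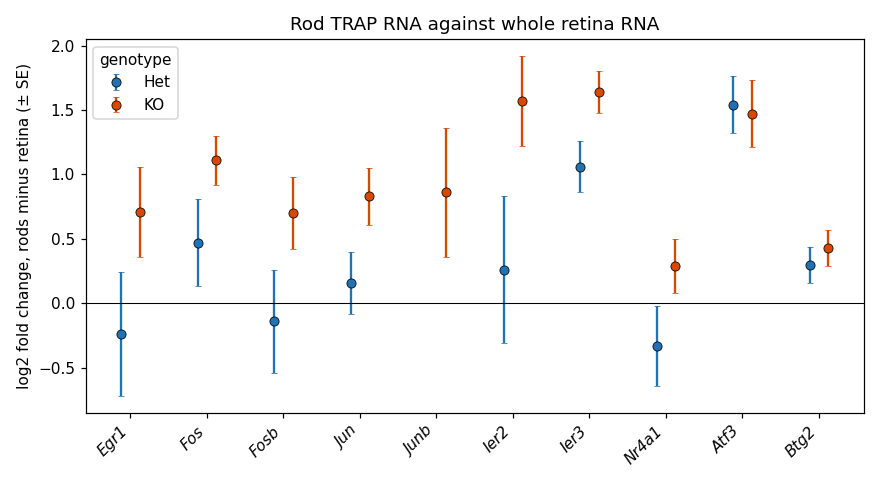
Log2 fold change of rods against whole retina (vertical axis, bars ± SE) for each gene in Het and in KO mice. Junb has no Het point because it did not pass the filter there, Atf3 is at 1.54 in Het and 1.47 in KO, and Egr1 is at -0.24 in Het and 0.71 in KO.

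Further genes of the response were read from 3 lists. Of 24 further immediate early transcription factors only 9 were high enough to fit in the rod comparison of genotypes, and 0 were called in either direction, beside 12.1% higher and 1.55% lower over all genes, with a median log2 fold change of 0.30. Of 31 effectors and feedback genes 21 were fitted and 4 were called higher: Dusp4, a phosphatase of ERK, at 1.27 (SE 0.41), the clock gene Per1 at 1.02 (SE 0.15), the kinase Sik1 at 0.86 (SE 0.20) and the NF-kB inhibitor Nfkbia at 0.55 (SE 0.12). Dusp4 had values of 5, 10 and 19 in Het rods against 34, 19 and 25 in KO rods, so the groups met at 19, and its retina values ran from 317 to 407. Of 26 upstream kinases and factors 24 were fitted and 4 were called higher, the MEK kinase gene Map2k2 at 1.23 (SE 0.24), the serum response cofactor Mrtfa at 0.91 (SE 0.15), the Creb1 cofactor Crtc1 at 0.82 (SE 0.12) and the heat shock factor Hsf1 at 0.58 (SE 0.16). With the GC trend subtracted 0 genes of these 3 lists were called higher, beside 1.34% of all genes. Of the transcription factors 1, Jund, was called lower (-1.07, SE 0.25), beside 1.29% of all genes. With shares this low over all genes, nothing about the lists is read from these counts. In retina 0 genes of these lists were called in either direction, beside 0% of all genes.

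In the comparison of Het rods with Het retina, 9 of 15 further transcription factors tested were lower in rods and 1, the repressor Nfil3, was higher at 0.50 (SE 0.18, adjusted p = 0.0345 from limma), just past the size limit, where 36.4% and 22.7% of all genes were called lower and higher. Of the 9, 6 (Egr3, Fosl2, Ier5l, Klf4, Npas4 and Nr4a3) passed the filter on low values only through retina and could only come out lower, as could 6 of 13 effectors and 1 of 8 upstream genes called lower. Bhlhe40, a repressor that responds to light and the clock, went from 971, 1169 and 1082 in retina to 27, 26 and 37 in rods, a log2 fold change of -4.81 (SE 0.20, adjusted p = 6.36e-07 from limma). Fosl2, a further partner of Jun, had values of 81, 99 and 118 in retina and 2, 4 and 6 in rods. Klf4 was listed at 0 in all rod libraries. Among effectors 13 of 26 tested were lower and 4 higher, the kinase Sgk1 at 1.44 (SE 0.10, adjusted p = 6.36e-06 from limma) together with Zfp36l2, Tiparp and Homer1. Among upstream genes 8 of 26 were lower and 5 higher, the neuronal factor Mef2c together with Mef2d, Rps6ka2, Mef2a and Atf1. The balance of the upstream genes turned with the GC trend subtracted, to 4 lower and 13 higher, while transcription factors had 8 lower and 4 higher and effectors 11 lower and 10 higher, where 31.4% of all genes were lower and 43.4% higher. In KO mice 9 of 15 further transcription factors were again lower and 1 (Nfil3) higher, 15 of 29 effectors were lower and 6 higher, and 7 of 26 upstream genes were lower and 6 higher, where 36.1% of all genes were lower and 26.9% higher. Those that passed the filter only through retina were 6 of the 9, 7 of the 15 and 1 of the 7 called lower. Subtracting the GC trend, the counts lower and higher were 9 and 3 for transcription factors, 14 and 10 for effectors and 4 and 13 for upstream genes, where 31.4% of all genes were lower and 44.7% higher. In KO mice Mef2c was at 1.52 (SE 0.14, adjusted p = 2.39e-05 from limma) under TMM scaling alone. With the GC trend subtracted it was at 1.98 (SE 0.07, adjusted p = 6.08e-08 from limma). Whether the members differ from these lists was not tested, because the members had been chosen with results in view.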

How the data were processed

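The authors deposited 1 table of whole numbers per gene and library. It was treated as signal proportional to reads, because the deposited totals are nearly equal within a fraction. The submitters' processing notes list CASAVA 1.8.2, HISAT2, DESeq2, edgeR and GRCm39, with no role or order. The counting tool, annotation and strand are not given in the sources used here. Columns of other samples numbered 0. The planned count model was replaced for this reason by limma 3.58.1 in R 4.3.3. Values were TMM-scaled, a pseudocount of 2 was added and log2 taken, and the trend and robust options were used. Genes needed a value of 10 in at least 3 libraries and a sum of at least 15. Groups came from genotype and tissue, 3 libraries each. Transcript GC content and length came from a GENCODE annotation of GRCm38, and the GC trend of each library was a lowess curve. Alternatives covered scaling, pseudocount, filter, moderation, a single fit, GC, block and each library left out. The method was tested on simulated data.

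Replicate numbers come from the sample titles. Deviations of libraries with the same number correlated at 0.47, 0.41 and 0.25 between Het retina and Het rods. These correlations do not show that libraries of a number came from the same mice. The fits given above took no account of the number, which entered only the alternatives with a replicate block. In the other comparisons at least 1 correlation was under 0.1.

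The members and lists were chosen with earlier results of these data known. Named were all 10 members, Ptpn11, at most the 4 largest called genes per further list, and the 5 genes most correlated with the members in each fraction. Th, Jund, Nfil3, Sgk1, Zfp36l2, Tiparp, Homer1, Mef2d, Rps6ka2, Mef2a and Atf1 fall outside this rule and were named after their values were seen. The same holds for Egr3, Npas4 and Nr4a3. Promoter windows are RefSeq sequences, and figures were drawn with matplotlib 3.10.9.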

Additional observations from a re-analysis of the deposited data

Results flagged for a closer look

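Under TMM scaling the rods to retina ratio of Egr1 lay on opposite sides of 0 in the genotypes. Between libraries of the same number the log2 ratio was -0.17, -0.16 and -0.38 in Het and 0.72, 0.83 and 0.60 in KO, and the means differed by 0.95. It stood out because every Het library moved one way and every KO library the other. The difference was not tested, since it includes the rod contrast from which the gene was known. The opposite signs were lost once the GC trend was subtracted: the ratios were 0.77, 1.10 and 0.12 in Het against 1.15, 0.80 and 1.55 in KO. The fitted log2 fold changes of Egr1 were then 0.56 (SE 0.34) and 1.05 (SE 0.51), and their difference was 0.50 (SE 0.69). In these fits the subtraction also moved the median of all genes, from -0.08 to 0.37 in Het and from 0.01 to 0.40 in KO. The KO libraries of a number are not shown to be paired.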

How the results depend on the processing

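The number of the 10 genes called moved by over 1.5 times under the following settings, and the cause was not tested. For Het rods against Het retina it went from 2 to 6 with the GC trend subtracted and to 7 with the replicate block as well. The share of all genes called higher went from 22.7% to 43.4% and 44.2%. For KO rods against KO retina it went from 6 to 10 with both, and the share of all genes from 26.9% to 44.8%. For KO rods against Het rods it went from 7 to 4 with the GC trend subtracted, to 3 with the block as well, and to 0 in a single fit of all libraries. The share of all genes called higher went from 12.1% to 1.34%, 1.65% and 0% in the same settings. An alternative chosen after seeing the data, which removed rod-depleted genes and the GC trend, gave 4. Leaving out each library in turn gave 2 to 3, 5 to 7 and 5 to 8 calls in these comparisons, and 0 to 0 in KO against Het retina and in the difference of KO effects. Shares of all genes are not given for that alternative or for the runs with a library left out. Those counts therefore have no background, and no stability of the members is read from them. The block alone left 2 calls in the Het fraction comparison, where same-numbered libraries correlated, and changed no member's call there. The share of all genes called higher was then 24.1%. Elsewhere the libraries share only a number: the block gave 6 calls for KO rods against KO retina, with Egr1 gained and Fosb lost, 0 in retina and 5 in rods. The shares of all genes called higher were then 26%, 0% and 12.9%. Every library correlated best with its own number only in the Het fraction comparison.

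Signs turned for log2 fold changes that were not called in the report. For Het rods against Het retina, library size alone gave -0.28 for Jun, -0.16 for Ier2 and -0.15 for Btg2. That scaling moved the median of all genes by -0.44. Subtracting the GC trend, with or without the block, gave 0.56 for Egr1, 0.50 for Fosb and 0.42 for Nr4a1. Without the block, that subtraction moved the median of all genes from -0.08 to 0.37. With libraries left out in turn, Egr1 ranged from -0.71 to 0.23 (above 0 without Het retina library 2, and at 0.09 without Het rods library 3), Fosb from -0.41 to 0.20 (above 0 without Het rods library 1, and at 0.19 without Het retina library 2) and Ier2 from -0.27 (without Het retina library 3) to 0.93. For KO rods against KO retina, library size alone gave -0.27 for Nr4a1 and -0.13 for Btg2 and moved the median of all genes by -0.56. In KO against Het retina, Fosb ranged from -0.25 to 0.22 (above 0 without Het retina library 2, and at 0.17 without KO retina library 2), Ier2 from -0.27 to 0.99 and Nr4a1 from 0.00 to 0.52, with both of the low ends reached without Het retina library 3. Members with KO rods highest numbered 10 of 10, and 8 with library size alone. Junb rested on few reads in Het rods, and the read estimate of Het retina library 3 was weakly fixed.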

Other observations

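By correlation with the mean log2 value of the 10 genes, the genes most like them over the 6 rod libraries were Pcsk7, Parp1, Icmt and Acsl6 (Pearson r 0.998 each) and Per1 (0.997), out of 13045 genes compared. Over the 6 retina libraries they were Cpsf4 (0.988), 2700033N17Rik (0.987), Gm38102 (0.985), the clock gene Per2 (0.984) and Ablim3 (0.983), out of 16853. The 2 fractions named no gene in common. These are the highest of many correlations over few libraries, which share genotype and GC tilt. Among the members themselves the median of the 45 pairwise correlations was 0.85 in rods and 0.71 in retina, and the lowest were 0.42 and 0.16. The libraries span both genotypes, and the members were chosen with the rod difference between genotypes in view, which favours high correlations. The same median over all genes was not taken, so nothing is read from these values.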
